A study of Mus musculus with 37 samples.

Results

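The transcripts described here are those of 10 genes that mark platelets, namely Pf4, Ppbp, Gp1ba, Gp9, Itga2b, Itgb3, Treml1, Clec1b, Tubb1 and Nrgn. They were chosen by symbol, and each symbol matched 1 row of a deposited expression table of 56748 genes. The table holds bulk RNA sequencing of left ventricle from 37 C57BL/6J mice, male and female, aged 8 to 10 weeks. All mice were anaesthetised with isoflurane. The 5 Naïve mice were neither intubated nor injected. Adr mice, called sham in the sample labels, were ventilated and given a saline injection into the left ventricle and then adrenaline by the same route. Arrest mice were ventilated and injected with potassium chloride, which gave 8 min of asystole, and were then resuscitated with the same adrenaline and chest compressions. Adr and Arrest hearts were collected after 0.5, 1, 3 or 7 days, with 4 libraries in each of these 8 groups. Arrest mice therefore stand for those that regained a heartbeat and lived to collection. The tissue sequenced was rinsed ventricle without its apex, so blood left in the vessels and cells held in the wall were sequenced together.

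Platelets are fragments of megakaryocytes. They carry little RNA, inherited from the parent cell, and have no nucleus of their own. On a damaged vessel wall they adhere through the receptor for von Willebrand factor, are activated through receptors such as CLEC-2, bind fibrinogen through the integrin αIIbβ3 and empty granules filled with chemokines and clotting proteins. The genes fall into these roles. Pf4 and Ppbp encode the granule chemokines platelet factor 4 and pro-platelet basic protein. Gp1ba and Gp9 encode chains of the von Willebrand factor receptor, and Itga2b and Itgb3 the αIIb and β3 chains of the integrin. Clec1b encodes CLEC-2, the receptor for podoplanin, and Treml1 encodes TLT-1, a receptor stored in α-granules. Tubb1 encodes the β1 tubulin of the ring of microtubules around the platelet, and Nrgn encodes neurogranin, a calmodulin-binding protein of neurons that is also abundant in platelets. Several of these genes are also used elsewhere. Pf4 is transcribed by tissue macrophages, and β3 pairs with another α chain on endothelium and macrophages.

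Megakaryocyte genes are commonly switched on by GATA1 together with ETS factors such as FLI1, and the stretches before the start sites of the genes on which the results turn are shown for that reason. RefSeq start sites on GRCm38.p6 were found for 9 of the 10 genes, all but Itgb3. Each line gives the 250 bases before the start, 5′ to 3′ on the strand of the gene, with capitals marking the GATA words AGATAA or TGATAA and the ETS word CAGGAA, each searched on both strands, so that TTCCTG also marks an ETS word.
Pf4 (chr5:90772185-90772434, + strand): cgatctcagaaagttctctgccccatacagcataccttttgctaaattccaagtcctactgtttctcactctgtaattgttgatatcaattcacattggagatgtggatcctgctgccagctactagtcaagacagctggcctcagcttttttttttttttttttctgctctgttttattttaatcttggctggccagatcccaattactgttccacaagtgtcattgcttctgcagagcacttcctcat
Ppbp (chr5:90768268-90768517, + strand): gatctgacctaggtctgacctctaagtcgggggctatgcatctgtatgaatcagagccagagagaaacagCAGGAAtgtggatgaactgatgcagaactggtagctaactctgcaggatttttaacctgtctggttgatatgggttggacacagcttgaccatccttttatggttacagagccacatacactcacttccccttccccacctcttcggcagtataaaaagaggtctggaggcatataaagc
Itga2b (chr11:102469884-102470133, - strand): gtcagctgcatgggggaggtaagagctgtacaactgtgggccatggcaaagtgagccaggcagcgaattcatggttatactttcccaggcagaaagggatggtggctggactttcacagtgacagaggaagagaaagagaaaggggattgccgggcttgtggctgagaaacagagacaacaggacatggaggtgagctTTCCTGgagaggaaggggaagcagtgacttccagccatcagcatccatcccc
Treml1 (chr17:48359666-48359915, + strand): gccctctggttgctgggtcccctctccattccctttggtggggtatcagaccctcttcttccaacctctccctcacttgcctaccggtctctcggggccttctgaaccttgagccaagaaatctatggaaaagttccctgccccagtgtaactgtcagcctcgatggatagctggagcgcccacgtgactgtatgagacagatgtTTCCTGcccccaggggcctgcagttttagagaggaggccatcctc
Clec1b (chr6:129397047-129397296, + strand): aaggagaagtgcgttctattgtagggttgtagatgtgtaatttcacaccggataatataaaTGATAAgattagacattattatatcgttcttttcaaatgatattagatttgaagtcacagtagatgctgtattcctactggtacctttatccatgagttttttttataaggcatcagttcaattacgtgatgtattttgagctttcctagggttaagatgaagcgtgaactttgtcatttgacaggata
Pf4 held none of these words, although its neighbour Ppbp held CAGGAA 180 bases before the start. Itga2b and Treml1 held the same ETS word, 52 and 45 bases before their starts. Clec1b held a GATA word 189 bases before its start. Over all 9 genes, 2 (Gp1ba and Clec1b) held a GATA word and 5 (Ppbp, Gp1ba, Itga2b, Treml1 and Tubb1) the ETS word, against 16.6% and 25.7% of 32851 windows of the same length. A match of letters is a description of the window and not a binding site.

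The deposited values are FPKM, fragments scaled to gene length and to a total for each library. The fragments counted could be recovered from them (13197037 to 30179901 per library), and these numbers limit the precision of the rarer transcripts. The total used for scaling was from 0.889 (Arrest replicate 3 at 1 day) to 1.41 times (Adr replicate 3 at 3 days) the recovered fragments. Levels are given as the deposited FPKM divided by 1.013, the median-ratio factor of every library. Since the factor was the same in each, the table already stood on 1 median-ratio scale and the division left the ratios between libraries unchanged. Tests compared log2(FPKM + 1) in 1 limma model of all libraries over the 16530 genes that reached 0.5 FPKM in 4 or more libraries, with Benjamini-Hochberg adjustment over those genes and a threshold of 0.05, and on this scale the change of a gene at low FPKM is understated. The 10 genes were all among those tested. In bulk tissue, fewer platelets and less RNA per platelet cannot be told apart. No source used here says more of the samples than that each is 1 heart, so p-values measure the spread between these hearts. A library of the Adr group at 3 days, replicate 3, stood apart. Genes of the mitochondrial genome took 9.36% of its fragments against 20.8% to 30.9% in the other 36 libraries, the summed FPKM of 8 cardiomyocyte genes was 3736, the lowest of any library, and that of 7 monocyte genes was 180, the highest. The study excluded 1 Adr sample at 3 days that the labels do not set apart, so all 4 were kept and results that rest on replicate 3 are also given without it. Naïve replicate 4 had the fewest genes above 0, 13475 against 15398 or more in the other 36 libraries. It held 0 fragments of Gp9, Itga2b, Treml1, Clec1b and Tubb1 and the highest Naïve levels of Ppbp, Gp1ba and Itgb3. Without it the count of platelet genes that passed was the same in each comparison with Naïve hearts, and Clec1b in Arrest at 1 day had a log2 fold change of 0.45 (limma adjusted p = 0.044).

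Among the platelet genes, Pf4 was the most abundant by far and the other 9 were scarce. Pf4 had a mean of 58.0 FPKM over 37 libraries and lay at the 95.9th percentile of the tested genes. Ppbp followed at 2.62 FPKM, Nrgn at 1.69 and Itgb3 at 1.41. Means below 1 FPKM were those of Gp1ba (0.709), Gp9 (0.610), Itga2b (0.450), Tubb1 (0.314), Clec1b (0.292) and Treml1 (0.156). Only Pf4, Ppbp and Itgb3 were above 0 in every library. Treml1 was at 0 in 22 of 37 libraries, Tubb1 in 15 and Gp9 in 14. Over all 37 libraries Treml1 rested on 147 fragments, Tubb1 on 273 and Gp9 on 366, against 28178 for Pf4.

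**Figure D1:**
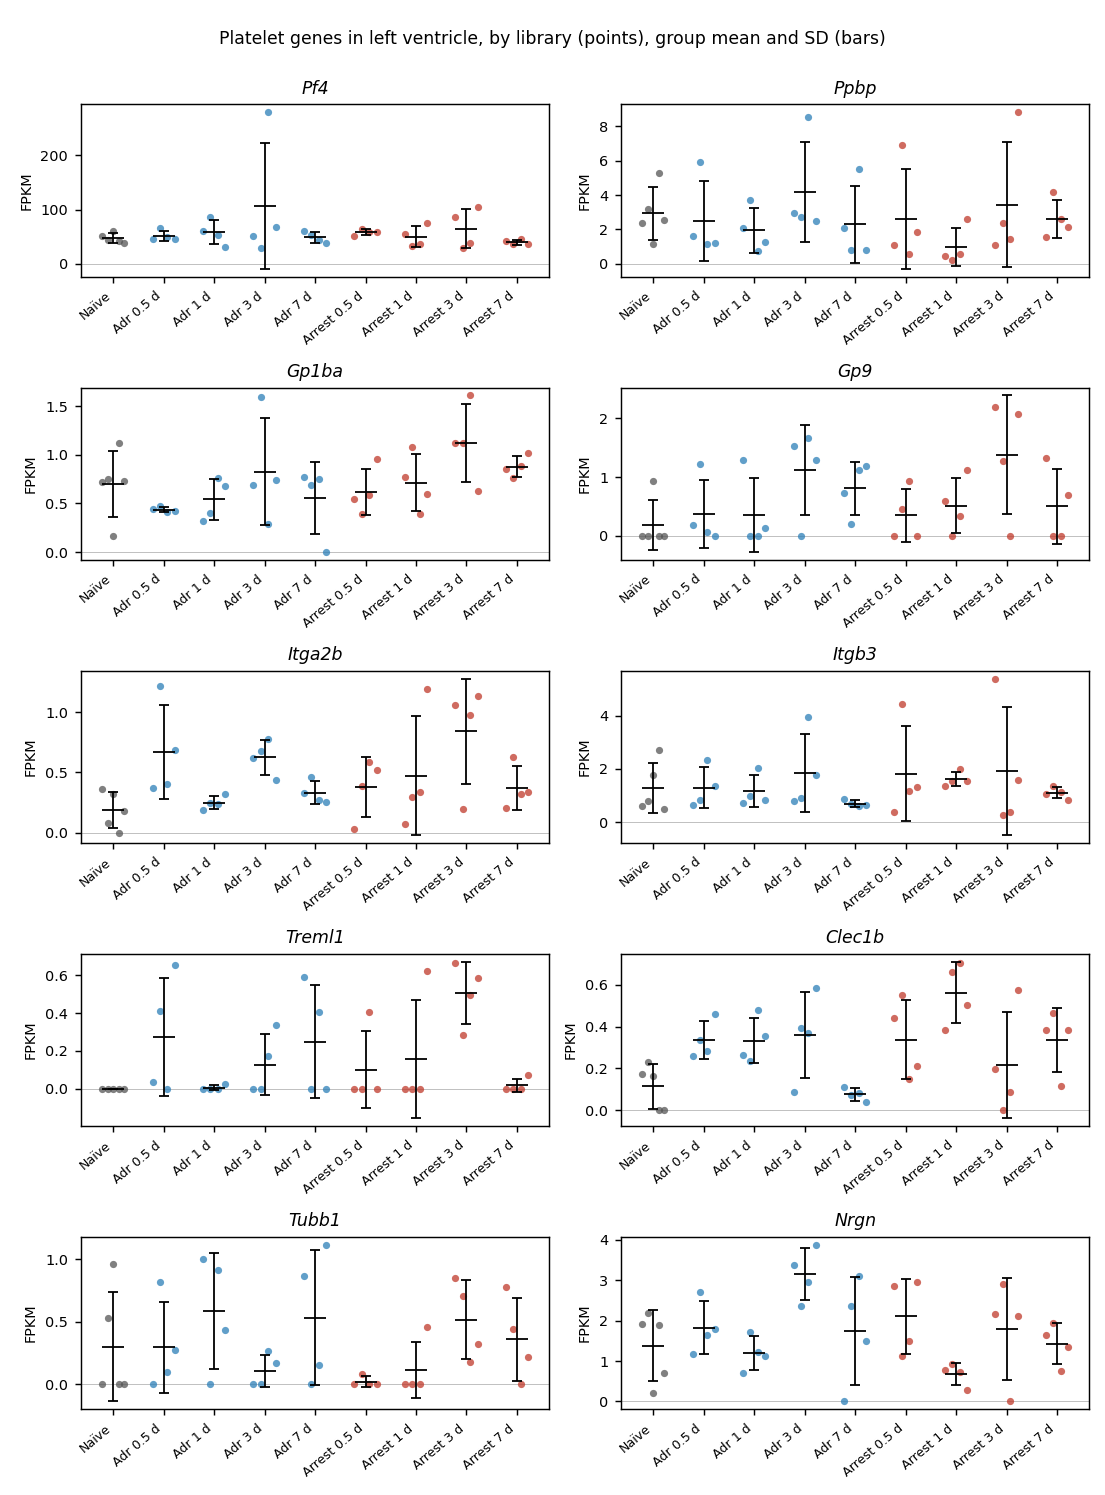
FPKM of each platelet gene (vertical axes, linear and different for each gene) in the Naïve, Adr and Arrest groups, with 1 point per library, the group mean as a horizontal bar and the SD as whiskers. The Pf4 axis is stretched by 1 Adr library at 3 days at 278 FPKM, and most other genes have libraries at or near 0.

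Of the granule chemokines, Pf4 (ENSMUSG00000029373, chr5:90920294-90921242, + strand in the table, whose genome build is not given in the sources used here and whose coordinates differ from GRCm38) stood at 47.2 ± 9.14 FPKM (SD, n = 5) in Naïve hearts. The Naïve libraries held 51.5, 44.7, 60.8, 41.4 and 37.8 FPKM. Adr hearts held 46.0, 65.9, 49.1 and 45.4 at 0.5 days, 60.4, 85.6, 54.0 and 31.8 at 1 day, 51.1, 29.8, 278 and 67.1 at 3 days and 60.3, 53.3, 43.1 and 37.9 at 7 days. Arrest hearts held 51.0, 63.9, 58.4 and 58.8 at 0.5 days, 55.7, 32.2, 37.4 and 75.3 at 1 day, 85.9, 30.0, 38.8 and 104 at 3 days and 41.3, 37.1, 46.1 and 36.0 at 7 days. Every group overlapped the Naïve range of 37.8 to 60.8 FPKM. The highest group mean was that of Adr at 3 days, 107 ± 116 FPKM (SD, n = 4), which was 49.3 ± 18.7 FPKM (SD, n = 3) without replicate 3, and the lowest that of Arrest at 7 days, 40.1 ± 4.63 FPKM. Log2 fold changes from Naïve ran from -0.22 in Arrest at 7 days to 0.64 in Adr at 3 days, and none passed the test (limma adjusted p from 0.46 to 1).

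Ppbp (ENSMUSG00000029372, chr5:90916377-90917922, + strand) ends 2371 bases before Pf4 begins, on the same strand, yet its level was a small part of that of Pf4. Naïve libraries held 2.39, 3.21, 1.18, 5.29 and 2.57 FPKM. The lowest group was Arrest at 1 day, with 0.487, 0.236, 0.564 and 2.63 FPKM, so that 3 of 4 libraries lay below every Naïve library and 1 within their range. The log2 fold change there was -1.04 (SE 0.48), with an unadjusted p of 0.037 and an adjusted p of 0.19 (limma), which did not pass. Elsewhere the group means lay between 1.96 ± 1.30 FPKM in Adr at 1 day and 4.19 ± 2.90 FPKM in Adr at 3 days (SD, n = 4). Without replicate 3 the latter was 2.74 ± 0.226 FPKM (SD, n = 3), below the Naïve mean of 2.93 ± 1.51 (SD, n = 5). Single libraries lay far above the rest of their group, at 5.94 FPKM in Adr at 0.5 days (replicate 2), 8.53 in Adr at 3 days (replicate 3), 2.63 in Arrest at 1 day (replicate 4) and 8.80 in Arrest at 3 days (replicate 4). The highest in Arrest at 0.5 days and Adr at 7 days were 6.90 (replicate 2) and 5.48 (replicate 3).

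The chains of the von Willebrand factor receptor were scarce and variable. Gp1ba (ENSMUSG00000050675, chr11:70529948-70532862, + strand), whose product binds the factor itself, stood at 0.698 ± 0.342 FPKM (SD, n = 5) in Naïve hearts, 0.437 ± 0.0256 in Adr at 0.5 days and 1.12 ± 0.402 in Arrest at 3 days (SD, n = 4), the lowest and highest group means. The 4 Arrest libraries at 3 days held 1.12, 1.12, 1.61 and 0.625 FPKM and overlapped the Naïve libraries, which held 0.719, 0.754, 0.166, 1.12 and 0.729. Its log2 fold change there was 0.33, with a 95% interval from -0.05 to 0.71, and the test was not passed (adjusted p = 0.45).

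Gp9 (ENSMUSG00000030054, chr6:87755054-87756750, + strand) encodes the small chain that the receptor needs to reach the surface. It was at 0 in 4 of 5 Naïve libraries and at 0.938 FPKM in the fifth. At 3 days the libraries held 1.52, 0, 1.67 and 1.30 FPKM in Adr and 2.19, 1.28, 0 and 2.07 in Arrest. In each of these groups 3 of 4 libraries lay above every Naïve library and 1 was at 0. Log2 fold changes were 0.80 (SE 0.35) in Adr and 0.93 (SE 0.35) in Arrest, with adjusted p of 0.31 and 0.22, so neither passed. Without Adr replicate 3 the Adr value was 0.65 (adjusted p = 0.77).

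The chains of the fibrinogen receptor did not share a pattern. Itga2b (ENSMUSG00000034664, chr11:102344123-102360948, − strand), the chain restricted to megakaryocytes and platelets, had its lowest group mean in Naïve hearts, 0.186 ± 0.152 FPKM (SD, n = 5), from libraries at 0.359, 0.080, 0.317, 0 and 0.175. Adr hearts held 0.368, 1.21, 0.399 and 0.684 FPKM at 0.5 days, 0.185, 0.245, 0.236 and 0.316 at 1 day, 0.615, 0.676, 0.780 and 0.433 at 3 days and 0.328, 0.464, 0.272 and 0.251 at 7 days. Arrest hearts held 0.026, 0.385, 0.582 and 0.515 at 0.5 days, 0.069, 0.293, 0.336 and 1.19 at 1 day, 1.06, 0.194, 0.977 and 1.14 at 3 days and 0.200, 0.630, 0.321 and 0.340 at 7 days. All Adr libraries at 0.5 and 3 days lay above all Naïve libraries, although at 0.5 days by as little as 0.368 against 0.359 FPKM. In Arrest at 3 days 3 of 4 did so. The log2 fold changes were 0.47 in Adr at 0.5 days, 0.46 in Adr at 3 days and 0.61 in Arrest at 3 days (SE 0.18 each). Their adjusted p were 0.22, 0.25 and 0.12, so none passed the test.

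Itgb3 (ENSMUSG00000020689, chr11:104498826-104561302, + strand) was more abundant than Itga2b in each group mean, from 0.704 ± 0.118 FPKM in Adr at 7 days to 1.91 ± 2.39 in Arrest at 3 days (SD, n = 4). Naïve hearts stood between, at 1.28 ± 0.942 (SD, n = 5). The highest libraries were Arrest replicate 1 at 3 days at 5.38 FPKM, Arrest replicate 2 at 0.5 days at 4.41 and Adr replicate 3 at 3 days at 3.93. Its log2 fold changes from Naïve lay between -0.33 and 0.29, and none passed (adjusted p from 0.71 to 1).

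Clec1b (ENSMUSG00000030159, chr6:129374260-129386298, + strand) gave the only difference that passed the test. It reached 0.5 FPKM in 6 libraries, and without those of Arrest at 1 day it would not have met the filter of 4. The call is thus on a gene that entered the test through the group where it was high. Naïve libraries held 0.173, 0.231, 0.162, 0 and 0 FPKM and Arrest libraries at 1 day 0.384, 0.663, 0.704 and 0.502. Each Arrest heart thus lay above each Naïve heart. The transcript rose by 0.49 on the log2 scale (SE 0.13, 95% interval 0.22 to 0.76, limma adjusted p = 0.020), which rested on 44 fragments over the 5 Naïve and 170 over the 4 Arrest libraries. The other group means lay at or below 0.359 FPKM. Adr hearts held 0.259, 0.337, 0.284 and 0.463 FPKM at 0.5 days, 0.263, 0.237, 0.480 and 0.353 at 1 day, 0.088, 0.393, 0.369 and 0.586 at 3 days and 0.113, 0.071, 0.083 and 0.038 at 7 days. Arrest hearts held 0.442, 0.549, 0.149 and 0.212 at 0.5 days, 0.195, 0, 0.087 and 0.577 at 3 days and 0.385, 0.465, 0.114 and 0.383 at 7 days. All Adr libraries at 0.5 and 1 day lay above the Naïve libraries, the nearest at 0.237 against 0.231 FPKM, without passing the test. A direct comparison of Arrest with Adr at 1 day did not pass either, so the rise in Arrest was not shown to differ from the change in Adr. At 7 days each Arrest library lay above each Adr library, as 1.66% of all genes also did, with 0.337 ± 0.153 against 0.0762 ± 0.0307 FPKM (SD, n = 4), a log2 difference of 0.31 (SE 0.14, adjusted p = 1).

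The call on Clec1b was a narrow one. Among other alternatives, it was lost without Naïve replicate 5 (adjusted p = 0.050, above the threshold before rounding), without Arrest replicate 2 (0.060) or replicate 3 (0.082) of the 1-day group, under quantile normalization (0.057) and with the number in each sample description as a covariate (0.41), while the fold change kept its sign. The call held without Adr replicate 3 at 3 days (adjusted p = 0.016). The description numbers of Arrest at 1 day were all lower than those of the Naïve hearts. A loss with that covariate therefore cannot be told apart from the group difference itself. The size of the change depended on the scale, with a log2 fold change of 1.79 when 0.1 instead of 1 was added to FPKM.

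Treml1 (ENSMUSG00000023993, chr17:48666944-48674204, + strand) was at 0 in all 5 Naïve libraries and above 0 in all 4 Arrest libraries at 3 days, at 0.664, 0.283, 0.498 and 0.585 FPKM. The Naïve group held 0 fragments and Arrest at 3 days 58, of which 27 came from replicate 4. With a floor of 3 fragments over the Naïve group the ratio was 17.8, which allows for counting error on the Naïve side only. Treml1 reached 0.5 FPKM in 5 libraries, and without those of Arrest at 3 days it would not have met the filter. The log2 fold change was 0.59 (SE 0.16) with an adjusted p of 0.10, which did not pass. The other groups were split. Adr hearts held 0.038, 0.409, 0 and 0.652 FPKM at 0.5 days, 0, 0, 0 and 0.027 at 1 day, 0, 0, 0.175 and 0.337 at 3 days and 0.592, 0, 0.403 and 0 at 7 days. In Arrest at 0.5, 1 and 7 days 1 library of 4 was above 0, at 0.408, 0.622 and 0.072 FPKM. At 3 days Arrest stood above Adr by 0.42 on the log2 scale (SE 0.17, adjusted p = 0.90), and these groups overlapped.

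Tubb1 (ENSMUSG00000016255, chr2:174292488-174299675, + strand) was at 0 in 3 of 5 Naïve libraries and in 3 of 4 Arrest libraries at both 0.5 and 1 day. Its group means ran from 0.0208 ± 0.0415 FPKM in Arrest at 0.5 days, where 2 fragments were counted in the whole group, to 0.588 ± 0.465 in Adr at 1 day (SD, n = 4). Arrest at 3 days was the only group without a library at 0, with 0.851, 0.706, 0.181 and 0.324 FPKM. None of its 12 comparisons had an unadjusted p of at most 0.05.

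Nrgn (ENSMUSG00000053310, chr9:37455788-37464200, − strand) was highest in Adr hearts at 3 days, at 3.38, 2.36, 2.96 and 3.87 FPKM, all above the Naïve libraries at 1.91, 2.18, 0.207, 1.90 and 0.707. The log2 fold change was 0.88 (SE 0.34) with an adjusted p of 0.25, so the test was not passed. Without replicate 3 the mean of the group was 3.21 ± 0.772 FPKM (SD, n = 3), against 3.14 ± 0.643 with it. In Arrest hearts at the same time the libraries held 2.15, 2.91, 0 and 2.11 FPKM and overlapped both groups. The lowest group was Arrest at 1 day, with 0.778, 0.923, 0.736 and 0.280 FPKM, within the Naïve range. The neuronal genes Snap25 and Th were above 0 in 4 and 1 libraries.

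Group means of a gene were mostly too close to rank. When the 9 groups were ordered by mean FPKM for each gene, 3 of 80 neighbouring pairs differed by more than the larger of their SDs, namely Arrest and Adr at 7 days for Itgb3, Adr at 3 days and Arrest at 0.5 days for Nrgn, and Adr and Arrest at 1 day for Nrgn. Arrest at 3 days had the highest mean for 5 genes (Gp1ba, Gp9, Itga2b, Itgb3 and Treml1) and Adr at 3 days for 3 (Pf4, Ppbp and Nrgn). Without replicate 3 the means of Adr at 3 days were 49.3 FPKM for Pf4 and 2.74 FPKM for Ppbp. Both lay below those of Arrest at 3 days (64.7 and 3.44 FPKM), so for these genes the rank rested on replicate 3. The Arrest means at 3 days leaned on single libraries too. For Ppbp replicate 4 held 8.80 FPKM and the others 1.10 to 2.38. For Itgb3 replicate 1 held 5.38 FPKM and the others 0.280 to 1.60. Naïve hearts had the lowest mean for 3 (Gp9, Itga2b and Treml1).

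The time course after arrest was tested against Naïve hearts at each time point. The paper lists platelet activation among the pathways that differed between Arrest at 0.5 days and Naïve hearts. It used DESeq2 and whole pathways, so the counts of these 10 genes do not test that result. At 0.5 days 0 of 10 platelet genes passed, where 3.21% of all tested genes did, and at 1 day 1 of 10 passed (Clec1b), where 7.11% did. At 3 days the count was 0 of 10 against 0.139% of all genes, and at 7 days 0 of 10 against 0% of all genes. Without adjustment, 0, 2, 3 and 0 of the 10 genes had p at or under 0.05 on days 0.5, 1, 3 and 7, beside 18.2%, 21.7%, 13.7% and 5.15% of all genes. On day 3 the log2 fold change was positive for 9 of 10 genes, all but Ppbp, with a median of 0.27 where the median of all tested genes was 0.01. Treml1, at 0 in all 5 Naïve libraries, could not have fallen. The genes were measured in the same hearts, so the number of positive changes is no test of a shared rise. The share of positive changes over all genes was not counted. The medians on days 0.5, 1 and 7 were 0.20, 0.10 and 0.09, beside 0.03, 0.03 and 0.02 over all genes. Groups without overlap were seen for 1 of 10 genes at 1 day (Clec1b, higher) and 1 of 10 at 3 days (Treml1, higher), which 5.71% and 1.74% of all genes also showed in that direction.

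Adrenaline alone gave 0 of 10 calls at each time, beside 0.188%, 0.69%, 0% and 0% of all genes on days 0.5, 1, 3 and 7. These comparisons share the Naïve libraries with those of the Arrest groups. Without adjustment 1, 0, 4 and 0 genes had p at or under 0.05, beside 14%, 14.7%, 13.9% and 6.15% of all genes. The 4 genes on day 3 were Gp9, Itga2b, Clec1b and Nrgn. There 9 of 10 log2 fold changes were positive, all but Tubb1, with a median of 0.32 (0.02 over all genes). Here too Treml1 could not have fallen, and the number of positive changes is no test of a shared rise. Without replicate 3, which stood apart, 8 of 10 log2 fold changes were positive, the median was 0.19 and 2 genes had an unadjusted p at or under 0.05. Medians on days 0.5, 1 and 7 were 0.16, 0.04 and 0.08. All libraries lay above Naïve for 2 genes at 0.5 days (Itga2b and Clec1b), 1 at 1 day (Clec1b) and 2 at 3 days (Itga2b and Nrgn), which 3.36%, 2.51% and 1.29% of all genes also did.

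**Figure D2:**
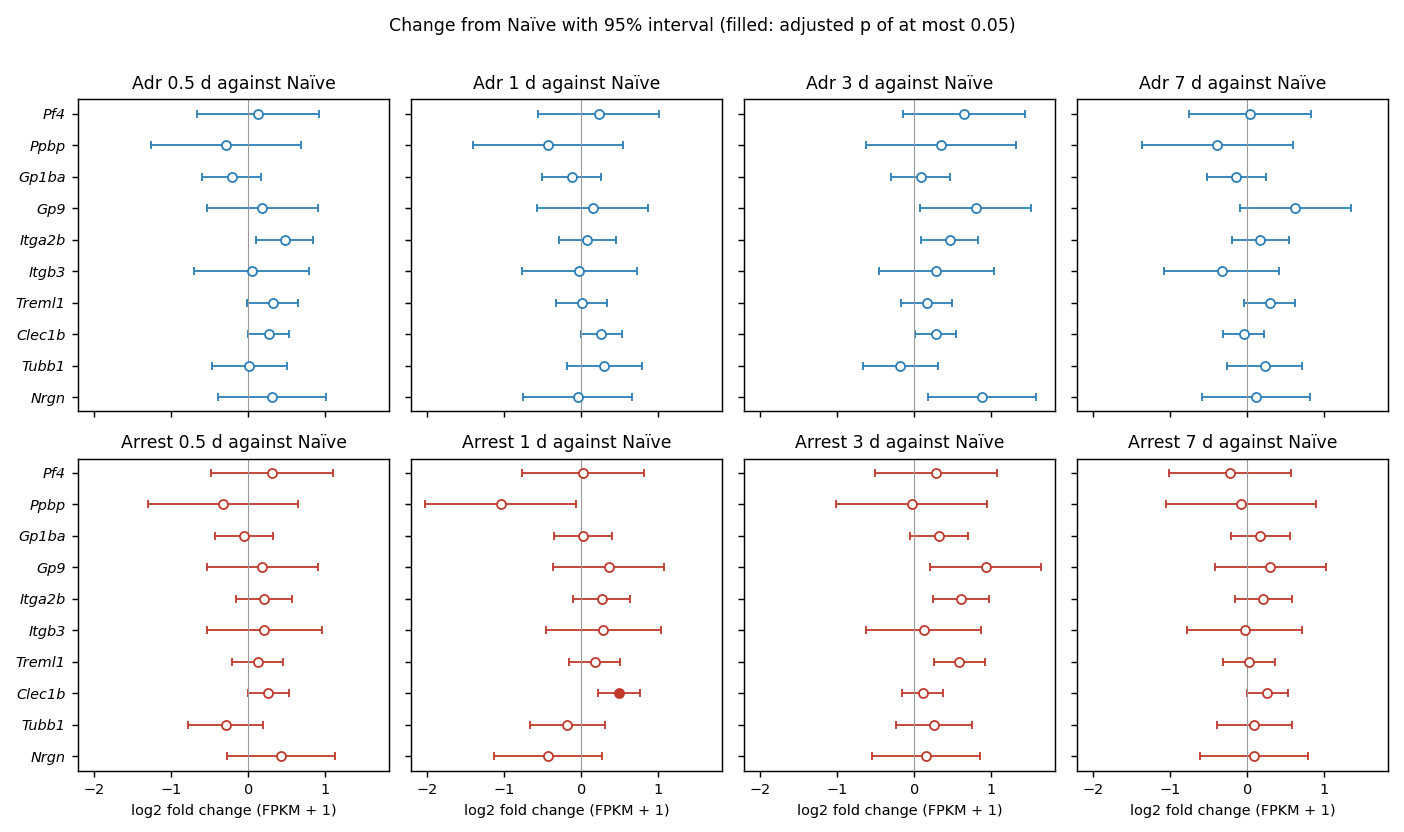
Log2 fold change of FPKM + 1 from Naïve (horizontal axes) with its 95% interval for each platelet gene, in 8 panels for the Adr groups (top) and Arrest groups (bottom). Clec1b in Arrest at 1 day is the 1 filled point, at 0.49, and 9 other intervals leave out 0.

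Arrest and Adr hearts were set against each other at the same time, which asks what arrest adds to the adrenaline and the procedure. None of the 10 genes passed at any of these times (0 calls each), beside 0%, 0%, 0% and 0.00605% of all genes. Without adjustment p was at or under 0.05 for 0, 0, 1 and 1 of 10 genes (Treml1 at 3 days and Clec1b at 7 days), beside 3.86%, 6.59%, 5.37% and 2.52% of all genes. The medians of the 10 log2 differences were 0.00, 0.16, -0.02 and 0.01. For Pf4, the gene with by far the most fragments, the differences were 0.18, -0.20, -0.36 and -0.26 with a 95% interval of -0.65 to 1.01 at 0.5 days and -1.19 to 0.47 at 3 days, and differences of any size within these intervals remain compatible with the data.

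Platelet genes were also followed heart by heart. Since Pf4 outweighs the rest, the FPKM of the other 9 genes were summed. The sum had a median of 6.18 (4.68 to 11.0) in Naïve, 10.9 (8.68 to 19.0) in Adr at 3 days and 11.9 (5.21 to 17.8) in Arrest at 3 days. In the other groups the medians lay between 4.91 in Arrest at 1 day and 7.43 in Arrest at 7 days. Some hearts were high for most genes at once. Adr replicates 3 and 4 at 3 days and Arrest replicate 4 at 3 days had 9 of 10 genes above the median of that gene over all libraries. Adr replicate 2 at 0.5 days, Arrest replicate 4 at 1 day and Arrest replicate 1 at 3 days had 8 of 10, and the Naïve hearts 2 to 4. Depth differed. The libraries with 9 genes held 17169619, 24693502 and 30179901 fragments, against 13431337 to 15697783 in Naïve. Those with 8 held 15480205, 16102571 and 14809962, and Adr replicate 4 at 1 day, with 25925952, had 3 genes above. Treml1, Gp9 and Tubb1 had medians of 0, 4 and 4 fragments, where passing the median depends on depth. The part of depth was not tested.

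**Figure D3:**
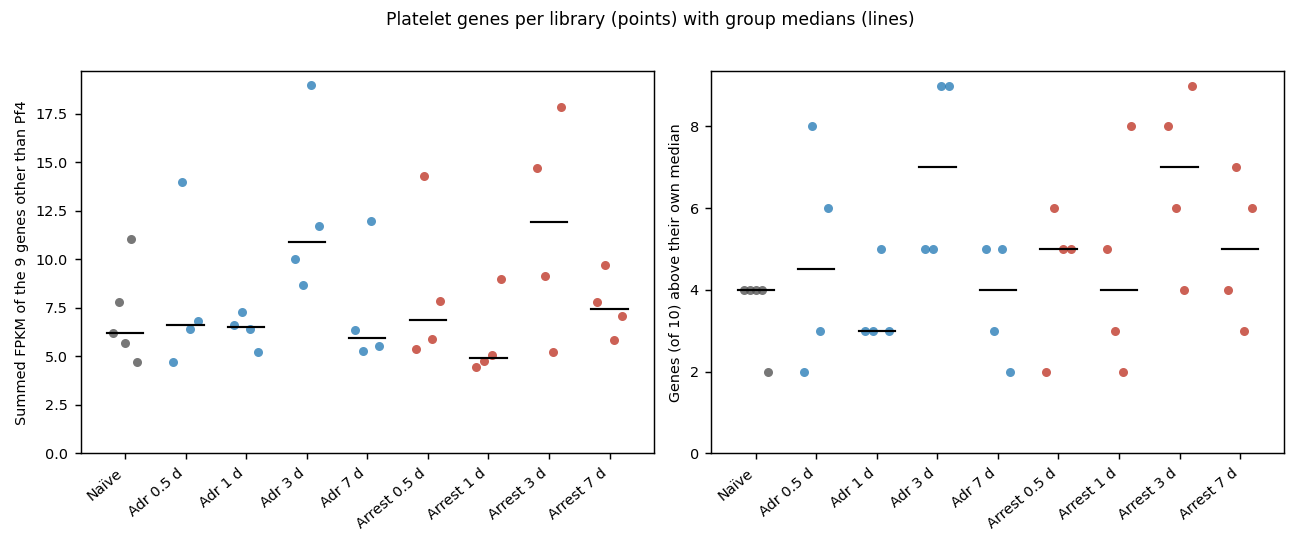
Left, the summed FPKM of the 9 platelet genes other than Pf4 in each library (points) with group medians (lines), and right, the number of the 10 genes above their own median over 37 libraries. Single hearts of the Adr and Arrest groups reach sums of 8.97 to 19.0, and the Naïve hearts have 2 to 4 genes above the median. The libraries differ in depth.

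Whether the genes varied together was asked for the 45 pairs over 37 libraries, with permutation tests (100000 resamples, two-sided) adjusted over the pairs. By Pearson correlation of log2(FPKM + 1) 6 pairs passed and by Spearman correlation 2, and the median Spearman correlation was 0.10. Itga2b and Treml1 passed by both (r = 0.65, adjusted permutation p = 0.0031; rho = 0.56, adjusted permutation p = 0.018), and r was 0.60 without the 2 libraries farthest from the median of Itga2b. Within groups, as deviations from the group means, they were r = 0.53 and rho = 0.49 and did not pass (adjusted permutation p = 0.097 and 0.12). Itgb3 and Clec1b passed by rho alone (0.51, adjusted permutation p = 0.029, with r = 0.38 and 0.11), and not within groups (rho = 0.39, adjusted permutation p = 0.28).

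The neighbours Pf4 and Ppbp had r = 0.43 (adjusted permutation p = 0.050) and rho = 0.22 (adjusted permutation p = 0.53). Without the 2 libraries farthest from the median of Pf4, r was 0.13, so the relation rested on those libraries. Gp9 and Tubb1 had r = 0.48 and rho = 0.46 (adjusted permutation p = 0.031 and 0.067), and within groups 0.60 and 0.56 (adjusted permutation p = 0.009 and 0.042). The 3 other pairs that passed by Pearson correlation alone were Pf4 with Gp9 (r = 0.47, rho = 0.42), Pf4 with Itgb3 (r = 0.52, rho = 0.41) and Gp9 with Treml1 (r = 0.47, rho = 0.43). Without Adr replicate 3 at 3 days both pairs with Pf4 did not pass (r = 0.43 and 0.40, adjusted permutation p = 0.11 and 0.12).

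**Figure D4:**
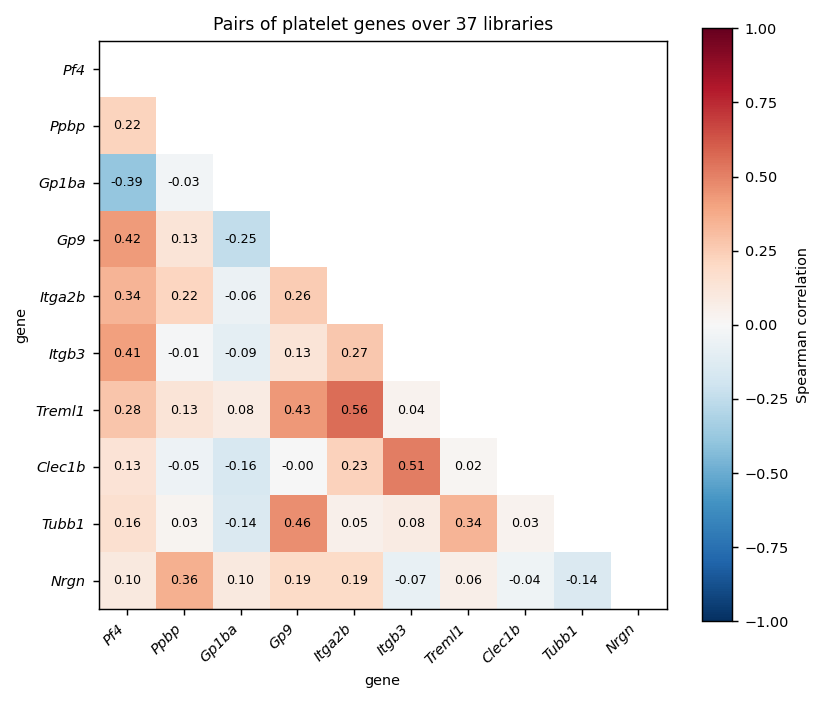
Spearman correlation of log2(FPKM + 1) over 37 libraries for each of the 45 pairs of platelet genes, coloured from -1 (blue) to 1 (red). Itga2b with Treml1 (0.56) and Itgb3 with Clec1b (0.51) are the strongest positive pairs, and Pf4 with Gp1ba (-0.39) is the lowest.

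Marker genes of other cell types were measured in the same libraries. The summed FPKM of 12 resident macrophage genes (such as C1qa, Mrc1 and Cd163, all 12 above 0 in every group) ran from 244 to 393 in Naïve, 302 to 1126 in Adr at 3 days and 353 to 640 in Arrest at 3 days. Over 37 libraries Pf4 correlated with this sum (r = 0.79, adjusted permutation p = 0.0009; rho = 0.65, adjusted permutation p = 0.0045, over 90 relations of the 10 genes with 9 marker sums). Without the 2 libraries farthest from the median of the sum r was 0.58, without Adr replicate 3 at 3 days r was 0.65 and rho 0.62, and within groups r was 0.80 and rho 0.62 (adjusted permutation p = 0.016 and 0.042). Pf4 also correlated with 7 monocyte genes (r = 0.82, adjusted permutation p = 0.0009; rho = 0.56, adjusted permutation p = 0.023), and within groups (r = 0.84, rho = 0.70, adjusted permutation p = 0.016 and 0.030). Without Adr replicate 3 at 3 days r was 0.66 and rho 0.52, of which rho did not pass (adjusted permutation p = 0.068). These were the 2 relations that passed by Spearman correlation. By Pearson correlation 14 of 90 passed, 3 of them without Adr replicate 3 at 3 days.

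Itgb3 had r = 0.54 and rho = 0.41 with the macrophage sum (adjusted permutation p = 0.012 and 0.19) and within groups r = 0.59 and rho = 0.64 (adjusted permutation p = 0.016 and 0.030). Without Adr replicate 3 at 3 days r was 0.44 and did not pass (adjusted permutation p = 0.090). Ppbp passed by Pearson correlation with the monocyte sum (r = 0.49, adjusted permutation p = 0.019; rho = 0.25) and with the sum for neurons and Schwann cells (r = 0.54, adjusted permutation p = 0.0078; rho = 0.40), and neither passed without Adr replicate 3 at 3 days (r = 0.36 and 0.44, adjusted permutation p = 0.17 and 0.090). Within groups Ppbp with the neuronal sum had r = 0.51 (adjusted permutation p = 0.043). Treml1 had r = 0.51 and rho = 0.49 with the macrophage sum (adjusted permutation p = 0.015 and 0.063), r = 0.61 without Adr replicate 3 at 3 days (adjusted permutation p = 0.0012) and r = 0.40 within groups (adjusted permutation p = 0.076).

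Clec1b, the gene called in Arrest at 1 day, had r = 0.46 and rho = 0.44 with the neutrophil sum (adjusted permutation p = 0.026 and 0.15). Without Adr replicate 3 at 3 days r was again 0.46 (adjusted permutation p = 0.060), and within groups it was 0.35 (adjusted permutation p = 0.33). Pf4 passed by Pearson correlation with fibroblast (r = 0.65), neuronal (r = 0.61) and cardiomyocyte sums (r = -0.71, adjusted permutation p = 0.007 each), and without Adr replicate 3 at 3 days none of these 3 passed (r = 0.39, 0.38 and -0.39, adjusted permutation p = 0.14 each). The other 4 that passed were Itga2b with macrophages (r = 0.49) and Itgb3 with monocytes (r = 0.51), endothelium (r = 0.44) and cardiomyocytes (r = -0.47), and none of them passed without that library (adjusted permutation p from 0.059 to 0.25). Without the 2 libraries farthest from the median of each sum, r was 0.40 for Clec1b with neutrophils, 0.56 for Treml1 with macrophages, 0.36 for Ppbp with neurons, 0.18 for Ppbp with monocytes and 0.04 for Itgb3 with endothelium, the last 2 of which rested on those libraries. Red cell genes bear on how much blood stayed in the tissue. Their summed FPKM ran from 1679 to 3901 in Naïve, 1545 to 1698 in Arrest at 1 day and 888 to 1753 in Arrest at 3 days, and no platelet gene correlated with it by an adjusted permutation p of at most 0.05. Neutrophil genes, 11 in the list with Ly6g at 0 in all libraries, summed to 0 to 12.1 in Naïve and 6.70 to 20.6 in Arrest at 1 day. The part of macrophages, monocytes and retained blood in the levels of the platelet genes was not tested.

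**Figure D5:**
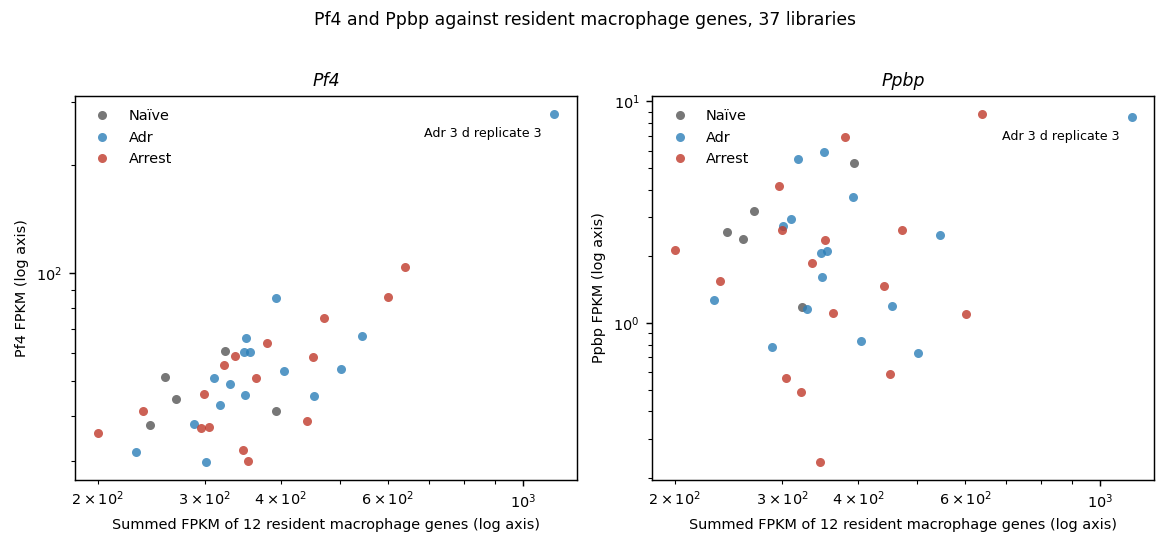
FPKM of Pf4 (left) and Ppbp (right) against the summed FPKM of 12 resident macrophage genes in 37 libraries (all axes logarithmic), coloured by arm. Pf4 climbs with the sum (r = 0.79, rho = 0.65), with Adr replicate 3 at 3 days at the upper right, and the Ppbp points are scattered.

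The genes whose pattern over the 37 libraries was most like that of each platelet gene were found by Spearman correlation among all tested genes, a description without a test. For Pf4 they were P4hb (0.77), Cd53 (0.73), a leukocyte tetraspanin, and Gnai3 (0.72). For Itgb3 they were Ms4a4a (0.76), Mmp27 (0.74) and Cgref1 (0.73). Ppbp came nearest to Ccnd3 (0.68), Cbfb (0.67) and Manba (0.67), Clec1b to ENSMUSG00000120920 (0.68), Hyal2 (0.68) and Pdcd6 (0.68), and Itga2b to Xlr3b (0.66), Ildr2 (0.62) and Bscl2 (0.62). The nearest genes of Gp1ba (Mfap1a, Cog4 and Snx25), Gp9 (Gpx7, Rab19 and Derl2), Treml1 (Gm3793, Ckmt1 and Rpl21-ps10), Tubb1 (Samd10, Cfap300 and Gm32618) and Nrgn (Macroh2a2, Cntrl and ENSMUSG00000120996) had correlations from 0.55 to 0.64. None of these nearest genes was another platelet gene of the set.

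Other genes of platelets and megakaryocytes were followed by list. Of 12 further receptors 4 were expressed well enough to be tested (P2ry1, P2ry12, F2rl3 and Tbxa2r), and 0 passed in any of the 12 comparisons. P2ry1, a receptor for ADP, had the highest mean at 4.22 FPKM and Tbxa2r, the thromboxane receptor, the next at 1.47. Gp1bb was listed at 0 in all 37 libraries, and Gp6, the collagen receptor, was above 0 in 13.

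Of 9 granule and secreted proteins 8 were tested, all but F5. Selp, which encodes the adhesion receptor P-selectin of α-granules and of endothelium, was the only one that passed, and only in Arrest at 0.5 days. Naïve libraries held 0, 0.789, 0.153, 0 and 0.200 FPKM, and Arrest libraries at 0.5 days held 0.766, 4.93, 1.19 and 1.80, so that the ranges met at 1 library of each. The log2 fold change was 1.24 (SE 0.36, limma adjusted p = 0.047). This call was lost in 14 of 22 alternatives, 8 of which left out 1 library, and the adjusted p was 0.25 without Arrest replicate 2. Clu and Srgn had the highest means of the list, 128 and 30.0 FPKM. In Arrest at 0.5 days 6 of the 8 had a positive log2 fold change, with a median of 0.63 beside 0.03 over all genes.

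Of 12 signalling and cytoskeleton genes all 12 were tested and 0 passed in any comparison, with Gng11 (62.7 FPKM) and Myl9 (26.8 FPKM) the most abundant. Of 7 transcription factors 4 were tested (Fli1, Tal1, Zfpm1 and Runx1) and 0 passed. Zfpm1 and Fli1 had means of 8.17 and 8.11 FPKM, and Gata1 and Gfi1b, which are needed to make megakaryocytes, were above 0 in 5 and 2 libraries. Pdpn, the gene of the CLEC-2 ligand podoplanin and a marker of lymphatic endothelium, rose in Arrest at 0.5 days by 1.40 on the log2 scale (SE 0.37, limma adjusted p = 0.034), from 6.37 ± 3.21 FPKM in Naïve (SD, n = 5) to 17.2 ± 4.74 (SD, n = 4). That call was lost in 10 of 23 alternatives, with an adjusted p of 0.12 without Arrest replicate 2 of the 0.5-day group. The lymphatic list of 6 genes had 2 positive log2 fold changes in that comparison, with a median of -0.08. Prox1 of the same list fell by 0.93 (limma adjusted p = 0.0053).

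Among marker genes of other cells, those that passed in the comparison in which Clec1b did, Arrest at 1 day, were Kdr, Cdh5, Egfl7 and Esam of blood vessels (log2 fold changes -0.92, -0.42, 0.43 and 0.52), Prox1 of lymphatic vessels (-0.77), Dbh of sympathetic neurons (-0.95) and Cd163 of macrophages (1.15, SE 0.35, limma adjusted p = 0.039). The call on Cd163 was lost in 12 of 23 alternatives, 8 of which left out 1 library. Of the 8 endothelial genes 2 thus rose and 2 fell, and 1 of 12 macrophage genes rose. In Arrest at 0.5 days Emcn and Esam rose by 0.60 and 0.59, Kdr, Prox1 and Dbh fell by 0.95, 0.93 and 1.00, and in Adr Prox1 fell by 0.84 at 0.5 days and by 0.74 at 1 day. The calls on Prox1 in Adr were lost in 14 and 17 of 23 alternatives, and of the other calls at 0.5 and 1 day in Arrest those on Dbh (10 of 23 each), Esam (8 and 12) and Egfl7 (8) were lost most often. No tested marker of red cells (7 of 10 listed), neutrophils (6 of 11 listed), monocytes, fibroblasts or cardiomyocytes passed in any comparison (0 genes). All 6 neutrophil genes tested had a positive log2 fold change in Arrest at 0.5 and 1 day, with medians of 1.00 and 0.85. They were measured in the same hearts, so their shared sign is no test of a rise. The paper reports neutrophil infiltration of the heart early after arrest, from flow cytometry and tissue staining. From its RNA sequencing it also reports neutrophil gene scores above Naïve at 0.5 days in Arrest and, to a lesser degree, in Adr. Those scores were taken over a list of genes, while the calls here are on single genes.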

How the data were processed

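Left ventricular RNA of 37 mice was sequenced by Novogene. HISAT2 was the aligner, FastQC the quality check and DESeq2 the test that the authors name. The genome build, annotation, counting tool and strand are not given in the sources used here. The authors deposited 1 table of FPKM values with gene lengths, and 0 of its library columns were left out. Multiplied by gene length, 100% of values were whole multiples of 1 fragment within a tolerance of 0.02. Median ratios gave the factor 1.013 in each library, and levels are the deposited FPKM divided by it, which left the ratios between libraries as deposited. Values were converted to log2(FPKM + 1), and the 16530 genes that reached 0.5 FPKM in 4 or more libraries entered 1 limma model (version 3.58.1, R 4.3.3, eBayes with trend, 1 mean per group, all 37 libraries), with Benjamini-Hochberg adjustment within each of 12 comparisons. The fit was tested on simulated data. Correlations were computed with scipy 1.17.1 and figures drawn with matplotlib 3.10.9.

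Groups came from the sample labels. The platelet genes and the lists were chosen with earlier results of these data known. All 10 platelet genes are named, and of the other lists the genes that passed in any comparison and the 2 with the highest mean. Other genes at or near 0 were named after their values were seen. The 95% intervals are those of limma, and the floor for Treml1 covers counting error in the Naïve group only. Genes that overlap others, or their antisense partners, cannot be told apart without strand. Alternatives were the scaling, pseudocount, filter, voom on the recovered fragments, covariates, the fit of only 2 groups and leaving out each library. Those for genes other than the 10 platelet genes, and for the marker sums, were added after seeing the data.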

Additional observations from a re-analysis of the deposited data

Results flagged for a closer look

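Within groups of 4 or 5 libraries, a single library stood far from the others by Dixon's test in 16 of 90 sets of 1 gene in 1 group. By chance about 1 in 20 would if values were continuous. In 7 of the 16 sets all other libraries were at 0, where any value above 0 passes by construction, so the number of sets is no measure of excess. Pf4 was at 278 FPKM in Adr replicate 3 at 3 days, where the next library held 67.1. Ppbp was at 8.53 FPKM in that same library (next 2.96), at 5.94 in Adr replicate 2 at 0.5 days (next 1.61), at 2.63 in Arrest replicate 4 at 1 day (next 0.564) and at 8.80 in Arrest replicate 4 at 3 days (next 2.38).

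In 2 sets the odd library was the lowest. Gp1ba was at 0 in Adr replicate 4 at 7 days, where the next library held 0.687 FPKM, and Itga2b was at 0.194 FPKM in Arrest replicate 2 at 3 days, where the next held 0.977. Gp9 was at 0.938 FPKM in Naïve replicate 3 with the other Naïve libraries at 0, at 1.23 in Adr replicate 2 at 0.5 days (next 0.180) and at 1.30 in Adr replicate 1 at 1 day (next 0.130). Treml1 was above 0 in a single library of 4 groups, at 0.0273 FPKM in Adr replicate 4 at 1 day, 0.408 in Arrest replicate 3 at 0.5 days, 0.622 in Arrest replicate 4 at 1 day and 0.0721 in Arrest replicate 4 at 7 days. Tubb1 was likewise at 0.0830 FPKM in Arrest replicate 2 at 0.5 days and at 0.455 in Arrest replicate 4 at 1 day. Arrest replicate 4 at 1 day thus appears for Ppbp, Treml1 and Tubb1.

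Of 40 checks of a gene between Arrest and Adr at 1 time, Clec1b at 7 days had every Arrest library above the Naïve mean and every Adr library below it. The nearest libraries held 0.1143 FPKM (Arrest replicate 3, 8 fragments) and 0.1126 FPKM (Adr replicate 1, 9 fragments). The Naïve mean was 0.1133 FPKM and included 2 libraries at 0, so the split around it was narrow. Arrest minus Adr was 0.261 in mean FPKM. The limma difference was 0.31 on the log2 scale with an unadjusted p of 0.034 and an adjusted p of 1, so it did not pass.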

How the results depend on the processing

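Over 12 fold changes of platelet genes and 244 alternatives, 238 kept their direction and their side of the threshold, 6 fell below the threshold and 0 changed sign. All 6 were Clec1b in Arrest at 1 day, the only 1 of the 12 that had passed, whose adjusted p in limma ran from 0.016 to 0.41. The others had not passed, so for them keeping their side of the threshold meant staying uncalled. The count of platelet genes called in that comparison, 1, became 0 under quantile normalization, with a filter on a mean of at least 1 FPKM (which left Clec1b untested), with the replicate block and with the number in each sample description as a covariate, and leaving out 1 library gave 0 to 1. Correlated pairs of platelet genes fell from 6 to 3 by Pearson correlation without Adr replicate 3 at 3 days and to 2 as deviations from group means, and from 2 to 1 by Spearman correlation as deviations. For the relations with marker sums (alternatives chosen after seeing the data) the Pearson count went from 14 to 3 and 4 and the Spearman count from 2 to 1 and 4. The causes were not tested.

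Libraries sharing a replicate number did not deviate together (correlations from -0.277 to 0.237), so the numbers were not taken as pairs. With the replicate block Clec1b had a log2 fold change of 0.45 (limma adjusted p = 0.062), the count of platelet genes called was 0, and all genes called in Arrest at 1 day were 768 instead of 1176. Over the alternatives this last count ran from 34 (description number) to 1703 (without Adr replicate 3 at 3 days). The count of all genes called ran from 125 to 910 around 531 in Arrest at 0.5 days, from 0 to 186 around 23 at 3 days, from 3 to 223 around 31 in Adr at 0.5 days and from 0 to 416 around 114 at 1 day. In both groups at 1 and 3 days and in Adr at 7 days the description numbers were all lower than in Naïve hearts. Number and group therefore cannot be separated in these comparisons. Where limma called 0 genes in all, in Adr at 3 and 7 days and Arrest at 7 days, 2295, 1017 and 852 had an unadjusted p under 0.05 and voom called 2, 4 and 0. Quantile normalization turned the split of calls in Arrest at 1 day from 641 higher and 535 lower to 391 and 622, and the median of the 10 platelet genes in Adr at 1 day from 0.04 to -0.05. Without Naïve replicate 4 the median over the platelet genes went from 0.09 to 0.16 in Arrest at 7 days and from 0.04 to 0.08 in Adr at 1 day. Few fragments limit Treml1, Tubb1 and Gp9.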
